A study of Mus musculus with 42 samples.

Results

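The arachidonic acid and prostaglandin enzymes described here are the products of 10 mouse genes: *Pla2g4a*, *Ptgs1*, *Ptgs2*, *Ptges*, *Ptgds*, *Alox5*, *Alox12*, *Alox12b*, *Alox15* and *Ggt5*. Every probe set annotated to one of these genes and to no other was taken, a probe set being the group of short probes that together measure a transcript on an Affymetrix array. This gave 16 probe sets for 9 genes, of 45037 probe sets tested, and *Ptgs1* was not analysed here. The arrays carried total RNA of C57BL/6 mice that were either *Fmr1*KO, a model of fragile X syndrome that lacks the RNA-binding protein FMRP from the germline on, or wild type (WT), all untreated. There were 4 systems: hippocampal culture and cortical culture, which are neuronal cultures from embryos at 17 to 18 days post-conception kept for 14 days in vitro, and primary hippocampus and primary cortex, the uncultured tissue of embryos of that age. Primary hippocampus was covered by 6 arrays of each genotype and the other systems by 5 of each, which makes 42 arrays. Each array holds pooled littermates and carries a mouse ID that recurs across systems within a genotype. The mouse ID was read here as the litter, which the labels do not state. On that reading, the arrays of 1 group come from different litters and no litter gave both KO and WT arrays. KO and WT replicates were processed in pairs by day, but the labels do not name the pairs, so that every test between genotypes here is unpaired. The *Fmr1* probe set was lower on every KO array than on every WT array of its system, by between 0.90 and 0.99 on the log2 scale, with an adjusted p of at most 2.61e-06 (limma).

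Arachidonic acid is stored in membrane phospholipids and is released by phospholipase A2. Cyclooxygenases turn it into prostaglandin H2, from which dedicated synthases make prostaglandins E2 and D2, while lipoxygenases turn it into hydroxy fatty acids and leukotrienes. In the brain, the inducible cyclooxygenase *Ptgs2* is known as a gene that excitatory neurons switch on with synaptic activity, and the prostaglandin D synthase *Ptgds* is known as an abundant product of the meninges and the choroid plexus.

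Values are log2 signals, so that a difference of 1 is a factor of 2. A probe set was called above background where its group mean exceeded 5.17. That level is the 95th percentile of 121 probe sets for olfactory, vomeronasal and keratin-associated protein genes, which the brain is not expected to use. Most members gave little or no signal: 10 of the 16 probe sets were not above background in any of the 8 groups. These included all probe sets of 4 genes, *Pla2g4a*, *Alox12*, *Alox12b* and *Alox15*. Only *Ptgds* set 1, *Ggt5* set 1 and *Alox5* were above background in all 8 groups. Against the 99th percentile of the same probe sets, 5.87, *Ptgds* set 1 was still above in all 8 groups. *Ggt5* set 1 and *Alox5* were above that level in 1 group each, so that their signals lie near the background. *Ptgs2* and *Ptgds* stood out by how far their levels moved: the 8 group means of *Ptgs2* set 1 spanned 2.80 log2 units and those of *Ptgds* set 2 spanned 2.06, against a median span of 0.52 over all probe sets. Because the samples are bulk RNA, fewer cells of a type and less RNA per cell cannot be told apart in any of the values that follow.

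**Figure D1:**
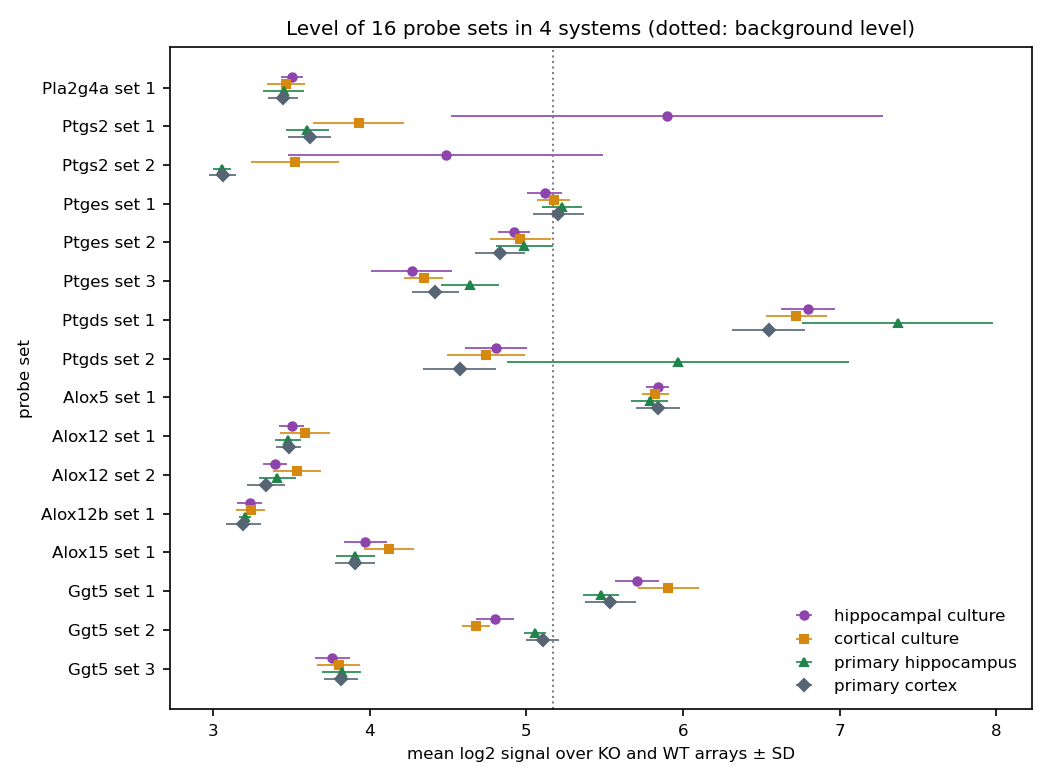
The level of each of the 16 probe sets (rows) in the 4 systems, as the mean log2 signal over KO and WT arrays with its SD (10 arrays, or 12 in primary hippocampus); the dotted line is the background level of 5.17. *Ptgs2* departs from its other levels in hippocampal culture and *Ptgds* in primary hippocampus, while the other probe sets lie close together across systems.

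*Ptgs2* was high in hippocampal culture and low everywhere else. The gene lies on chromosome 1 (chr1:150100031-150108234, GRCm38.p6, plus strand), and was measured by probe sets 1417262_at (set 1) and 1417263_at (set 2). Its proximal promoter is shown because the gene differed so widely between arrays of the same kind. The sequences come from RefSeq on GRCm38.p6, 5′ to 3′ on the gene's strand, and capitals mark an SP1 site (GGGCGG) in the 250 bases before the annotated start, and a CRE motif core (TGACG, here on the other strand as CGTCA) that overlaps an E-box (CACGTG) by 2 bases just after it.
Ptgs2 before the start, chr1:150099781-150100030: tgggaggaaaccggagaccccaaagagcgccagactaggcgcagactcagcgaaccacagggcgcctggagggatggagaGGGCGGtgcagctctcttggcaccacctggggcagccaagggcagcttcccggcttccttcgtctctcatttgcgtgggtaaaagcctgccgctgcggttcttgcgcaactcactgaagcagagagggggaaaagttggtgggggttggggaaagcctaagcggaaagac
Ptgs2 around the CRE motif core, chr1:150100035-150100064: tcaccactaCGTCACGTGgagtccgcttta
Counted on both strands over 32851 RefSeq promoter windows of 300 bases, the CRE motif core is found in 20.8%, the E-box in 7.15% and the SP1 site in 35.7%. These matches describe the sequence and were not tested as binding sites. The exact letters of a TATA box (TATAAA), an AP-1 site (TGANTCA) and a C/EBP site (TTNNGNAAT), which occur in 13.6%, 7.81% and 11.5% of windows, were not found in the *Ptgs2* window. The stretch before the start does hold TTGCGCAAC, which departs from the C/EBP letters searched only at the last base. A C/EBP site is therefore not shown to be absent.

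On set 1, the 5 KO hippocampal cultures read 6.71, 4.59, 4.61, 4.77 and 6.50 (mice 2037, 2038, 2221, 2620 and 4236). The 5 WT hippocampal cultures read 5.19, 4.64, 6.38, 8.80 and 6.76 (mice 2236, 2643, 2644, 3569 and NT). Cultures of 1 kind thus ranged from 4.59 to 8.80, and 6 of the 10 arrays were above background. In cortical culture the KO arrays read 4.04, 3.60, 4.03, 3.71 and 3.86 and the WT arrays 4.04, 3.58, 3.88, 4.59 and 3.96, none of them above background. Primary hippocampus ran from 3.33 to 3.74 and primary cortex from 3.34 to 3.84. The lowest hippocampal culture and the highest cortical culture met at 4.59, and every tissue array lay below that value. Averaged over genotypes, set 1 was 2.29 ± 0.28 (SE) higher in hippocampal culture than in primary hippocampus (adjusted p = 2.88e-09) and 1.97 ± 0.29 higher than in cortical culture (adjusted p = 1.77e-06). Since no array of the dimmer systems was above background, these sizes are bounded only from below: set against the background level itself, the mean of 5.90 in hippocampal culture was at least 1.66-fold higher than in either. Set 2 was higher by 1.43 ± 0.20 and 0.96 ± 0.21 in the same comparisons (adjusted p = 4.33e-08 and 0.00043), although its hippocampal culture means of 4.08 (KO) and 4.89 (WT) stayed under the background level. In the cortex, culture exceeded tissue by 0.46 ± 0.21 on set 2 (adjusted p = 0.0469), with every array under the background level and a call that was lost on leaving out any of 16 of the 20 arrays, and set 1 did not pass. The culture difference itself was larger in the hippocampus than in the cortex, by 1.98 ± 0.41 on set 1 and 0.97 ± 0.29 on set 2 (adjusted p = 0.00023 and 0.009).

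**Figure D2:**
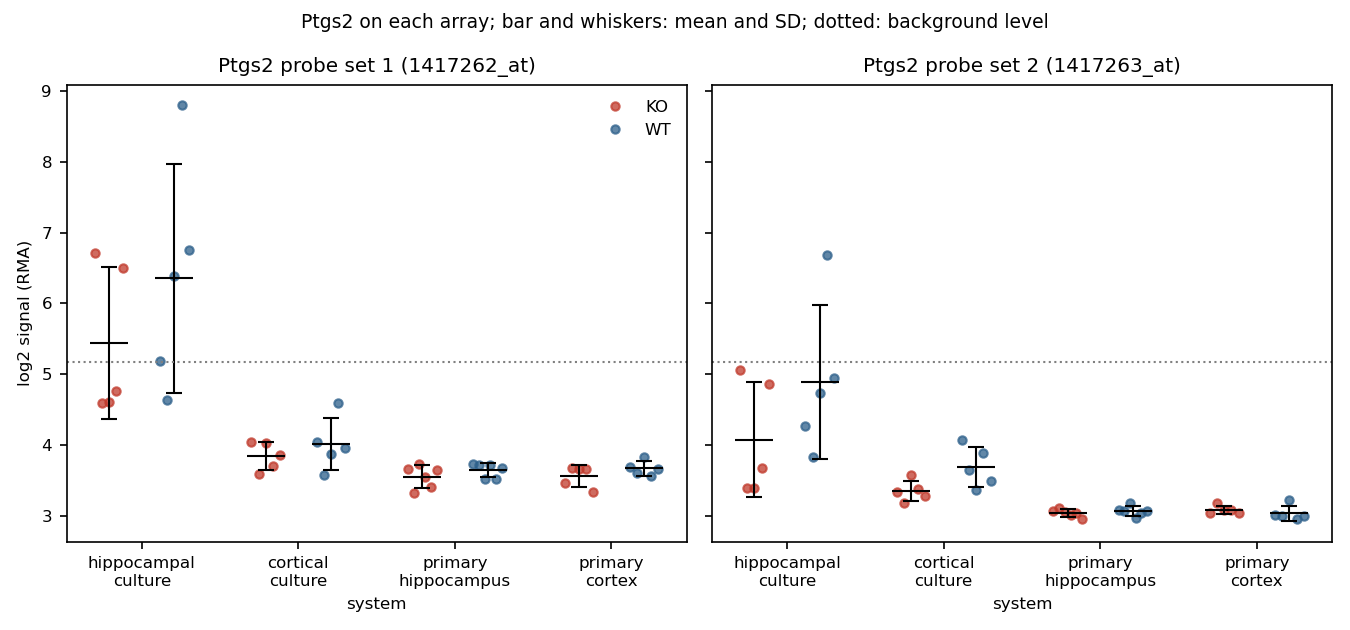
*Ptgs2* log2 signal on each of the 42 arrays for both probe sets, by system and genotype (red KO, blue WT), with the group mean and SD as bar and whiskers and the background level as a dotted line. Hippocampal cultures spread from 4.59 to 8.80 on set 1, while no array of the other 3 systems exceeds 4.59.

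KO hippocampal cultures had less *Ptgs2* than WT on average, but the genotypes overlapped and leaving out single cultures removed the call. Set 1 averaged 5.44 ± 1.07 (SD, n = 5) in KO and 6.35 ± 1.61 (n = 5) in WT, a difference of -0.92 ± 0.41 (SE; limma p = 0.033, adjusted p = 0.518; exact permutation p = 0.286), with a 95% interval from -1.76 to -0.08. Set 2 differed by -0.82 ± 0.29 (limma p = 0.00799, adjusted p = 0.388; exact permutation p = 0.222), with KO arrays from 3.40 to 5.06 and WT arrays from 3.83 to 6.68. The limma fit shares 1 estimate of the spread among all 42 arrays, and *Ptgs2* was far less variable in the other systems. Fitted on the hippocampal cultures alone, neither probe set passed. Without the WT culture 3569, the differences were -0.31 and -0.37 and neither passed. Set 1 also lost its call without KO culture 2038, 2221 or 2620 or WT culture NT. In cortical culture, primary hippocampus and primary cortex, KO minus WT on set 1 was -0.16, -0.10 and -0.11 (95% interval -0.86 to 0.67 in primary hippocampus, and wider in the other systems). The shared spread overstates the uncertainty there: the SDs in primary hippocampus were 0.16 in KO and 0.10 in WT. On set 2, KO and WT means were 3.35 and 3.69 in cortical culture, 3.04 and 3.07 in primary hippocampus, and 3.09 and 3.04 in primary cortex. These means lay under the background level, and no difference was called. The KO effect in hippocampal culture was not separable from that in cortical culture (-0.75 ± 0.59 between them on set 1, 95% interval -1.94 to 0.43, adjusted p = 0.984).

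The activity-induced genes, a list of 13 transcripts such as *Fos*, *Arc*, *Npas4* and *Bdnf* that neurons switch on when they fire, were followed beside *Ptgs2* as the mean log2 signal of the list. In WT hippocampal cultures the list read 7.48, 7.53, 8.18, 9.74 and 8.02 in the mouse order given above, and in KO 8.38, 7.48, 7.65, 7.68 and 8.59. WT culture 3569 was the highest in both the list and *Ptgs2*, and the KO cultures 2037 and 4236, which had the most *Ptgs2* of their genotype, also had the most of the list. None of the 13 genes was called between KO and WT in hippocampal culture (9.54% of all genes), and the median difference was -0.24, against 0.01 over all genes. In cortical culture, where *Ptgs2* was under background, the median was -0.26, against 0.01 over all genes. There 1 of the 13 genes was called lower in KO (4.05% of all genes) and none higher. Cortical cultures reached the same list levels, from 7.36 to 9.70, with *Ptgs2* at 4.59 or less. Between hippocampal and cortical culture, 2 list genes were higher and 1 lower, with a median of -0.07 (28.2% of all genes called). The part of the list in the *Ptgs2* values was not tested.

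**Figure D3:**
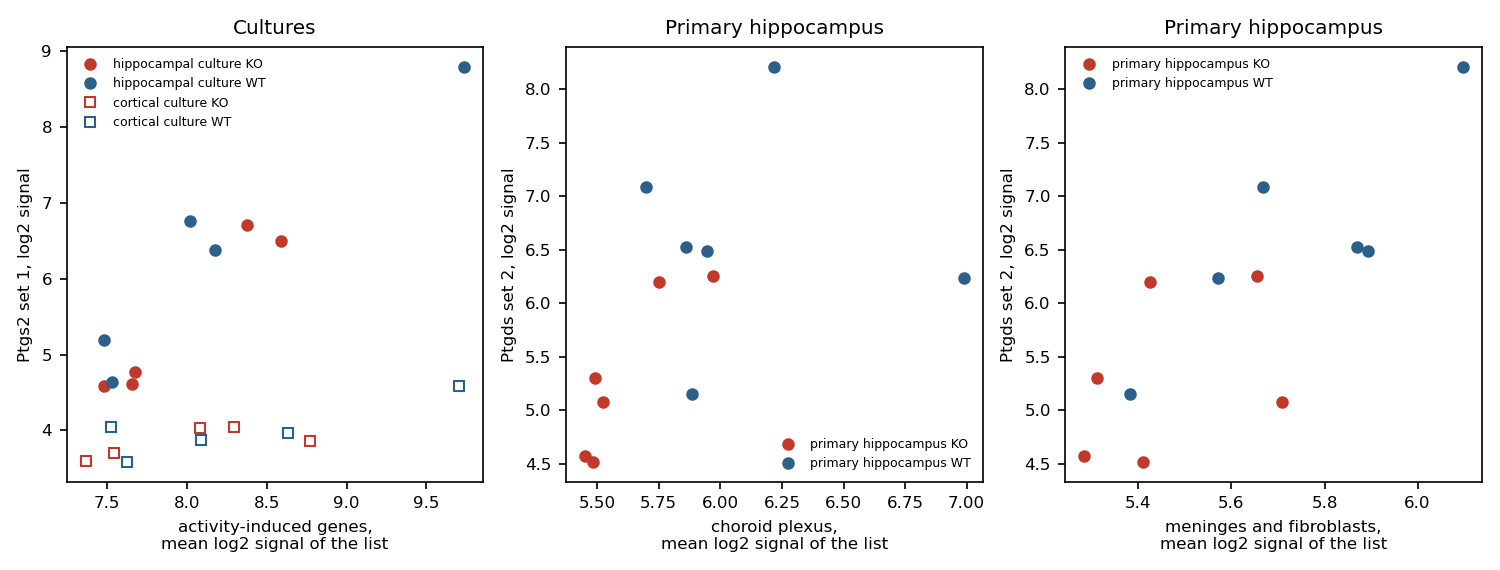
Left, *Ptgs2* set 1 against the mean log2 signal of 13 activity-induced genes on the 20 culture arrays (filled, hippocampal; open, cortical); middle and right, *Ptgds* set 2 against the choroid plexus and the meninges and fibroblast lists on the 12 primary hippocampus arrays (red KO, blue WT). Cortical cultures reach list levels up to 9.70 with *Ptgs2* no higher than 4.59, and the WT hippocampus with the highest *Ptgds*, at 8.21, also has the highest meninges value, at 6.10.

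*Ptgds*, which makes prostaglandin D2 and carries lipids in the cerebrospinal fluid, was highest in primary hippocampus and was lower there in KO than in WT. It lies on chromosome 2 (chr2:25466709-25470110, minus strand) and was measured by 1423859_a_at (set 1) and 1423860_at (set 2). The 250 bases before the transcript start that RefSeq gives for its promoter, which lies inside the span of the gene, are shown because both probe sets moved together. Capitals mark an AP-1 site (TGACTCA), found in the form TGANTCA in 7.81% of windows, and none of the other motifs searched was found in the *Ptgds* window.
Ptgds before the start, chr2:25469750-25469999: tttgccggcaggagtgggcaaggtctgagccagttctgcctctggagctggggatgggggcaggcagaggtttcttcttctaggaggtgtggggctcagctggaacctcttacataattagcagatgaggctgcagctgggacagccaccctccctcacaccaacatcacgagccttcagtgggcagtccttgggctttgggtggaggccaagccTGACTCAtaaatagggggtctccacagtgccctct

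On set 2, the 6 KO hippocampi had a lowest value of 4.52, a median of 5.19 and a highest value of 6.25, and the 6 WT hippocampi 5.15, 6.51 and 8.21. The 3 lowest KO arrays lay under every WT array, and the genotypes overlapped between 5.15 and 6.25. KO minus WT was -1.30 ± 0.29 on the log2 scale, which is 2.46-fold (95% interval -1.88 to -0.71; limma p = 6.19e-05, adjusted p = 0.31 over all probe sets; exact permutation p = 0.0238). On set 2 only 3 of the 6 KO arrays and 5 of the 6 WT arrays were above background. The 2.46-fold is thus a ratio of measured signals and not an exact size for the transcript. Set 1, above background on all 12 arrays, ran over 6.69, 7.05 and 7.61 in KO and over 7.09, 7.38 and 9.02 in WT, lowest, median and highest. Its difference was -0.56 ± 0.19 (limma p = 0.00669, adjusted p = 1.0; exact permutation p = 0.0823). Without the WT hippocampus 3569, the array with the highest value on both sets, the differences were -0.98 on set 2, which still passed, and -0.29 on set 1, which did not. Fitted on primary hippocampus alone, set 2 passed and set 1 did not.

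No such difference was called in the other systems. KO minus WT on set 2 was 0.10 ± 0.32 in hippocampal culture, -0.20 ± 0.32 in cortical culture and -0.03 ± 0.32 in primary cortex. On set 2, the KO effect in primary hippocampus differed from those in hippocampal culture and primary cortex at an unadjusted threshold only, and on set 1 from neither: hippocampal culture minus primary hippocampus was 1.40 ± 0.43 (adjusted p = 0.957) and primary hippocampus minus primary cortex was -1.26 ± 0.43 (adjusted p = 1.0) on set 2. Cortical culture was not compared with primary hippocampus. Over genotypes, *Ptgds* was higher in primary hippocampus than in primary cortex, by 0.82 ± 0.14 on set 1 and 1.39 ± 0.21 on set 2 (adjusted p = 1.76e-05 and 1.81e-06). Set 2 was under background on every primary cortex and hippocampal culture array, and its mean in primary hippocampus was at least 1.74-fold above the background level. Hippocampal culture was lower than primary hippocampus by 0.57 ± 0.14 and 1.16 ± 0.21 (adjusted p = 0.00068 and 9.14e-06). The SD of set 2 was 1.09 in primary hippocampus, 0.23 in primary cortex, 0.20 in hippocampal culture and 0.25 in cortical culture. The shared spread of the fit thus understates the uncertainty of set 2 differences that involve primary hippocampus as well. It overstates the uncertainty of those among the other systems. In the cortex, neither probe set passed between culture and tissue, and hippocampal minus cortical culture was 0.08 ± 0.15 and 0.07 ± 0.22.

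**Figure D4:**
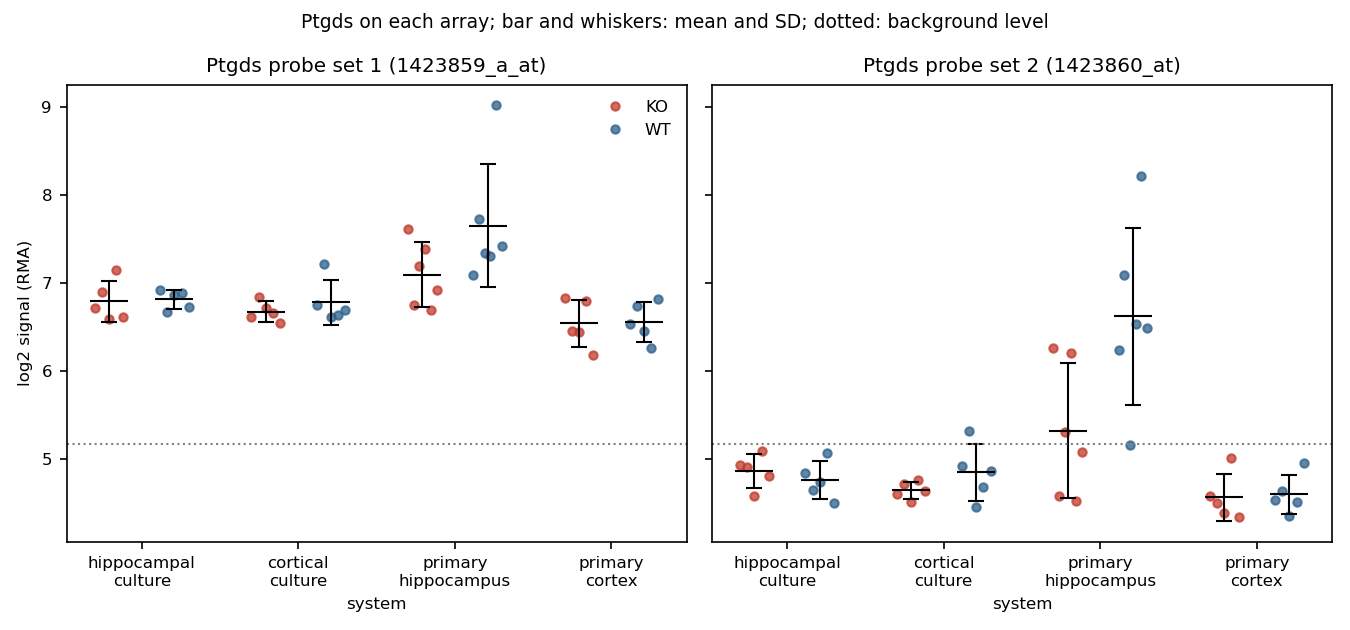
*Ptgds* log2 signal on each array for both probe sets, by system and genotype (red KO, blue WT), with the group mean and SD and the background level (dotted). In primary hippocampus set 2 runs from 4.52 to 6.25 in KO and from 5.15 to 8.21 in WT, and the other systems stay between 4.33 and 5.31.

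Some markers of the choroid plexus and the meninges were lower in KO in primary hippocampus, as *Ptgds* was. Of 11 measured choroid plexus genes, 5 were called lower in KO and none higher, with a median of -0.43, among them *Clic6* (-0.89 ± 0.16) and *Sostdc1* (-0.49 ± 0.23), both above background, while *Ttr*, the most abundant product of that epithelium, differed by -0.95 ± 0.86 and was not called. Of 16 meningeal and fibroblast genes, 5 were called lower and none higher, with a median of -0.27, among them the collagen *Col3a1* (-1.13 ± 0.28) and *Islr* (-0.51 ± 0.20), both above background. The group means of *Kcne2* and *Aqp1*, and of *Lum*, *Aldh1a2* and *Slc6a13*, which were called too, lay under the background level. Of 14 microglia and macrophage genes, 2 were called lower and none higher, with a median of -0.09. Over all genes, 0.945% were called lower. The gene lists were chosen with earlier results of these data known, so that these counts are not independent support. The mean of the choroid plexus list ran from 5.45 to 5.97 over the KO hippocampi and from 5.70 to 6.99 over the WT hippocampi, and that of the meningeal list from 5.28 to 5.71 and from 5.38 to 6.10. WT hippocampus 3569 had the highest meningeal mean, and WT hippocampus 2236, with the highest choroid plexus mean of 6.99, had a *Ptgds* set 2 value of 6.23, below the WT median. Both lists were also higher in primary hippocampus than in primary cortex, with 13 of 16 meningeal and 8 of 11 choroid plexus genes called higher and none lower, where 19.7% of all genes were higher. Microglia and macrophage genes did likewise, with 13 of 14 higher. In primary cortex none of either list was called between KO and WT. The oligodendrocyte lineage, another known source of *Ptgds*, had 1 of 13 genes called lower in the KO hippocampus and a median of 0.01. The part of these tissues in the *Ptgds* difference was not tested.

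**Figure D5:**
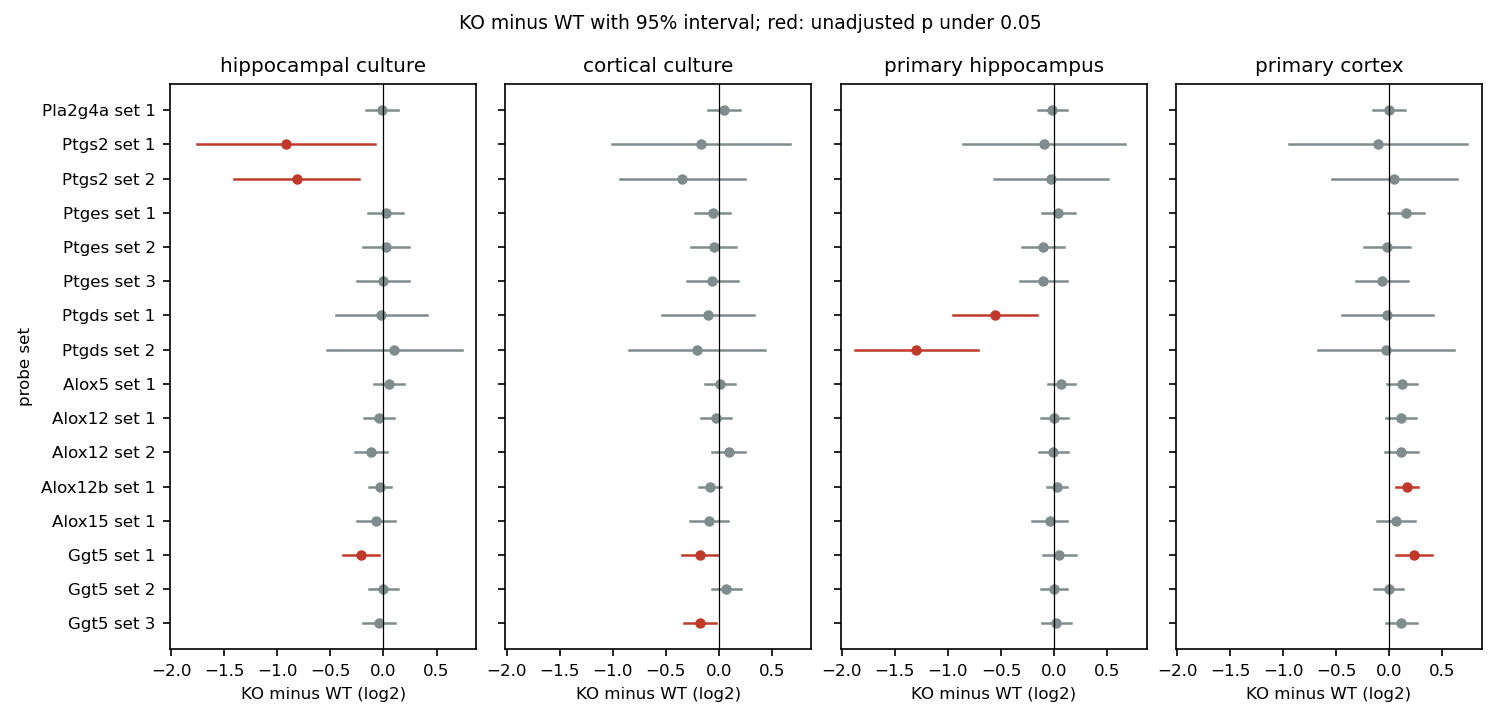
KO minus WT on the log2 scale for the 16 probe sets in each system, with 95% intervals; red marks an unadjusted p under 0.05. *Ptgs2* in hippocampal culture and *Ptgds* in primary hippocampus have the largest differences, and the remaining calls lie within 0.23 of 0.

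Counted over all members, KO differed from WT at an unadjusted p under 0.05 in 3 of 16 probe sets in hippocampal culture, where 8.78% of all probe sets were called, in 2 in cortical culture (9.67%), in 2 in primary hippocampus (1.71%) and in 2 in primary cortex (1.94%). All 7 calls in the first 3 systems were lower in KO, where 3.3%, 5.23% and 0.946% of all probe sets were, and both calls in primary cortex were higher (1.27% of all). None of the 16 had an adjusted p under 0.05 in any system, against 0.00222%, 0.00222%, 0.00666% and 0.00222% of all. The KO effect differed between hippocampal culture and primary hippocampus for 2 of 16 (5.02% of all), between cortical culture and primary cortex for 3 (4.67%), between the cultures for 0 (4.66%) and between the tissues for 1 (1.57%), at an unadjusted p under 0.05. At an adjusted p under 0.05 these counts were 0, as for 0% of all probe sets. The 2 calls in primary hippocampus are the 2 probe sets of *Ptgds*, and those in hippocampal culture include both of *Ptgs2*, so that genes were fewer than probe sets. The median KO minus WT over the 16 was -0.03, -0.07, -0.01 and 0.06 in the order of systems above, against medians between -0.01 and 0.01 over all probe sets.

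The remaining calls belonged to *Ggt5* and *Alox12b* and were small. *Ggt5*, which trims leukotriene C4 to leukotriene D4 at the cell surface (chr10:75589327-75617200), had 3 probe sets. Its set 1 (1439420_x_at, a suffix that marks probes able to match other transcripts) read 5.60, 5.48, 5.75, 5.54 and 5.62 in KO hippocampal cultures and 5.80, 5.68, 5.91, 5.80 and 5.85 in WT. KO minus WT was -0.21 ± 0.08 (limma p = 0.0158, exact permutation p = 0.0159), and only the highest KO array reached into the WT range. In cortical culture KO read 5.60, 5.75, 5.91, 5.65 and 6.19 and WT 5.98, 6.07, 6.00, 6.09 and 5.85, at a difference of -0.18 ± 0.08 (limma p = 0.0382, exact permutation p = 0.167). This call was lost without KO culture 2037, 2038 or 2620 or WT culture 2643, 2644 or 3569. Primary cortex went the other way: KO read 5.71, 5.82, 5.49, 5.59 and 5.64 and WT 5.41, 5.39, 5.27, 5.55 and 5.48, higher in KO by 0.23 ± 0.08 (limma p = 0.00893, exact permutation p = 0.0159). In primary hippocampus the difference was 0.05 ± 0.08. The KO effect of set 1 differed between cortical culture and primary cortex by -0.41 ± 0.12 (adjusted p = 1.0) and between hippocampal culture and primary hippocampus by -0.26 ± 0.11 (adjusted p = 0.957). Set 3 (1455747_at) followed in the cortex, at -0.17 ± 0.07 in culture (limma p = 0.0232, exact permutation p = 0.0318), though its values of 3.61 to 4.08 were under the background level. Set 2 (1418216_at) had no call between genotypes in any system, with differences from -0.01 to 0.07 on the log2 scale.

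The probe sets of *Ggt5* also went apart between culture and tissue. Set 1 was higher in culture, by 0.23 ± 0.06 in the hippocampus and 0.37 ± 0.06 in the cortex (adjusted p = 0.00054 and 6.38e-07). Set 2, at group means of 4.64 to 5.11 and so under the background level, was lower in culture by 0.25 ± 0.05 and 0.42 ± 0.05 (adjusted p = 6.32e-06 and 3.31e-10). A direction for the gene between culture and tissue was therefore not given by these arrays.

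Of the 4 lipoxygenases among the members, *Alox5*, which starts the synthesis of leukotrienes (chr6:116410071-116461178), was the only gene above background. It held a nearly constant level, with group means from 5.75 to 5.90, and no call in any comparison between genotypes, regions or preparations. *Alox12b*, a lipoxygenase of the skin barrier (chr11:69157072-69169791), read 3.23, 3.31, 3.36, 3.28 and 3.21 in KO primary cortex and 3.21, 3.07, 3.13, 3.16 and 2.98 in WT. That is a difference of 0.17 ± 0.05 (limma p = 0.00247, exact permutation p = 0.0159), under the background level in both genotypes. *Alox12*, the platelet-type enzyme (chr11:70241457-70255380), had the only probe set of the 16 whose genotypes did not overlap in a system, primary cortex (0.531% of all probe sets). No member was free of overlap in hippocampal culture (0.921% of all), cortical culture (0.735%) or primary hippocampus (0.124%). Set 1 of *Alox12* in primary cortex read 3.51 to 3.61 in KO and 3.32 to 3.50 in WT, under the background level in both. The difference was 0.11 ± 0.07 (exact permutation p = 0.00794, the smallest that 5 against 5 allows, and p = 0.13 in limma). Arrays without overlap always reach that smallest permutation p, so it adds no evidence beyond the lack of overlap. *Alox15*, which oxygenates arachidonic acid in macrophages and epithelia (chr11:70344147-70390538), and set 2 of *Alox12* were higher in cortical culture than in primary cortex, by 0.21 ± 0.06 and 0.20 ± 0.05 (adjusted p = 0.00271 and 0.00127), under the background level in both.

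The remaining enzymes, *Pla2g4a* and *Ptges*, had no call between genotypes. *Pla2g4a*, the cytosolic phospholipase A2 that frees arachidonic acid, had group means from 3.44 to 3.51 and no call in any comparison. *Ptges*, the inducible prostaglandin E synthase that is often coupled to *Ptgs2* (chr2:30889471-30931020), had group means from 5.11 to 5.28 on set 1, around the background level. Sets 2 and 3 lay under that level. In hippocampal culture, where *Ptgs2* was high, set 1 of *Ptges* read 5.05, 5.13, 5.14, 5.27 and 5.06 in KO and 5.13, 5.31, 4.92, 5.12 and 5.05 in WT, and the WT culture 3569 with the most *Ptgs2* was at 5.12. Set 3 (1449450_at), with group means of 4.27 to 4.69, was lower in hippocampal culture than in primary hippocampus by 0.37 ± 0.08 (adjusted p = 0.00012) and higher in primary hippocampus than in primary cortex by 0.22 ± 0.08 (adjusted p = 0.0351).

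Between culture and tissue, at an adjusted p under 0.05, 7 of 16 probe sets differed in the hippocampus, where 67.9% of all probe sets did, 3 of them higher in culture (36.9% of all) and 4 lower (31% of all). In the cortex 5 of 16 differed, where 67.5% of all did, 4 higher (35.6%) and 1 lower (32%). Differences of at least 2-fold between the measured means were found in 3 member probe sets in the hippocampus (15.7% of all), those of *Ptgs2* and set 2 of *Ptgds*, and in none in the cortex (14.9% of all). Of the 16 probe sets 10 lay under the background level in every group, and the difference between the members' shares and those of all probe sets was not tested. Between the regions, 3 of 16 differed in tissue (31.1% of all), *Ptgds* and set 3 of *Ptges*, all higher in the hippocampus (15.2% of all). In culture 4 of 16 differed (24.9% of all), with both probe sets of *Ptgs2* higher (12.6% of all) and set 1 of *Ggt5* (-0.20 ± 0.06) and set 2 of *Alox12* (-0.14 ± 0.05) lower (12.4% of all) in the hippocampus. The culture difference itself depended on the region for 6 of 16 probe sets (27.4% of all), both of *Ptgs2* and of *Ptgds* among them. These comparisons share arrays with each other and with those between genotypes.

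Litters could also be compared as a whole, since 5 KO and 5 WT litters gave an array in all 4 systems. Of 9 genes, each by its probe set with the highest mean, *Alox5* was the only gene with an exact permutation p under 0.05. The litter means were 5.85 ± 0.03 (SD) in KO and 5.79 ± 0.02 in WT, higher in KO by 0.06 (exact permutation p = 0.00794, the smallest that 5 against 5 litters allow; adjusted p = 0.0714 over the 9 genes). In the same exact test *Ptgs2* differed by -0.32 (p = 0.214) and *Ptgds* by -0.18 (p = 0.159). Averaged over the 2 culture systems alone, *Ggt5* differed by -0.19 (exact permutation p = 0.0397), while *Alox5* differed by 0.03 (p = 0.46). Over the 2 tissues alone, in the same exact test, *Alox12b* differed by 0.10 (p = 0.00794) under the background level, *Alox5* by 0.09 (p = 0.0397) and *Ggt5* by 0.14 (p = 0.0476). These values were not adjusted.

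The wider eicosanoid pathway was covered by 66 measured genes that are not among the 10, each by 1 probe set. Between KO and WT, 5 were called in hippocampal culture (9.54% of all genes), 1 higher (6.87% of all) and 4 lower (2.67%). In cortical culture 10 were called (10.2% of all), 3 higher (6.17%) and 7 lower (4.05%). The only call in primary hippocampus (1.54% of all) was the lipoxygenase *Alox12e* at -0.13 ± 0.06. In primary cortex 6 were called (1.66% of all), 4 higher (1.23%) and 2 lower (0.434%). The microsomal epoxide hydrolase *Ephx1*, which opens fatty acid epoxides, was lower in KO in hippocampal culture (-0.56 ± 0.22, adjusted p = 0.445) and in primary cortex (-0.54 ± 0.22, adjusted p = 1.0). Its KO means were 9.90 ± 0.37 (SD) and 4.79 ± 0.21 against WT means of 10.46 ± 0.42 and 5.32 ± 0.11, the KO mean in primary cortex lying under the background level. In cortical culture, where it was not called, the means were 10.52 in KO and 10.33 in WT. In cortical culture, the prostaglandin transporters *Abcc4* and *Slco2a1* moved in opposite directions (0.37 ± 0.16 and -0.31 ± 0.14). None of the prostanoid synthases outside the 10 was called in hippocampal culture or in either tissue, and none of the receptors in either tissue.

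Between culture and tissue, 28 of the 66 genes were higher (35.9% of all genes) and 14 lower (36.2%) in the hippocampus, where 72.1% of all genes were called. In the cortex 31 were higher (35.3%) and 12 lower (35.9%), where 71.2% of all were called. Of these calls, 27 in the hippocampus and 26 in the cortex were above background in the system with the higher mean. Of 21 genes for its release and reacylation, 12 were higher and 2 lower in the hippocampus and 11 higher and 3 lower in the cortex. *Acsl4*, which couples arachidonic acid to coenzyme A, was higher in culture by 3.01 ± 0.12 and 2.16 ± 0.13, and *Mboat7* and *Lpcat3*, which put it into phospholipids, by 1.66 ± 0.11 and 1.42 ± 0.09 in the cortex. The receptor *Ptger3*, which responds to prostaglandin E2, was above background in culture only, at least 1.91-fold higher than in tissue in the hippocampus and at least 5.1-fold in the cortex against the background level, and it was lower in hippocampal than in cortical culture, by 1.42 ± 0.20 (adjusted p = 7.35e-07). *Ephx1* was higher in culture by 4.36 ± 0.15 in the hippocampus. *Ptgr1*, which inactivates prostaglandins and leukotrienes, was lower in culture in the hippocampus (-2.09 ± 0.17), while in the cortex its means were 6.40 in culture and 6.09 in tissue. The leukotriene enzyme *Lta4h* was lower in culture in the hippocampus (-0.57 ± 0.05). *Alox5ap*, the partner protein of *Alox5*, was lower in culture (-0.67 ± 0.09 in the hippocampus and -1.13 ± 0.10 in the cortex), with culture means of 5.02 and 5.05 that lie under the background level. Of 14 measured microglia and macrophage markers, the cells known for *Alox5ap*, 11 were above background in primary hippocampus and 3 in hippocampal culture. Between the tissues, *Alox5ap* was lower in the hippocampus than in the cortex (-0.48 ± 0.09, limma adjusted p = 9.43e-05). In that comparison 13 of the 14 markers were higher in the hippocampus, where 19.7% of all genes were. The part of these cells in the *Alox5ap* values was not tested.

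In primary tissue, 5 of 7 genes for the breakdown and transport of prostaglandins were called higher in the hippocampus than in the cortex and none lower, where 36.4% of all genes were called and 19.7% were higher. They included *Ptgr1* (2.24 ± 0.17), *Cbr3* (1.04 ± 0.12) and *Slco2a1* (0.87 ± 0.09). The median over the 7 was 0.77, against -0.01 over all genes, and *Cbr1* (9.51 and 9.48) and *Ptgr2* (7.09 and 7.06) were not called. Marker lists moved in the same comparison, with 13 of 14 microglia and macrophage genes, 7 of 10 astrocyte genes, 4 of 9 endothelial genes, 13 of 16 meningeal genes and 8 of 11 choroid plexus genes higher in the hippocampus. Their part in these differences was not tested. The blood cell type prostaglandin D synthase *Hpgds* was higher in the hippocampus as well, by 0.40 ± 0.06.

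Over the 42 arrays, the genes whose pattern was most like *Ptgs2* set 1 were *Mtf1*, *Zyx*, *Phex*, *Ccdc63* and *Oxr1*, with Pearson r between 0.90 and 0.93. Their means were highest in hippocampal culture too, for example 6.84 for the cytoskeletal adaptor *Zyx* there against 6.20 in cortical culture and 5.86 in primary hippocampus. For *Ptgds* set 1 they were *Ranbp3l*, *Gjb6*, *F13a1*, *Aldh1a2* and *Slc6a20a*, with r between 0.73 and 0.76, of which *Aldh1a2* is on the meningeal and *Gjb6* on the astrocyte list. All but *F13a1* had system means under 4, below the background level. For *Ggt5* set 1 they were *Uba7*, *Foxh1*, *Krt81*, *Fcgr2b* and *Gm5142* (r 0.83 to 0.88). The best r was 0.65 for *Ptges* and 0.61 for *Alox5*. The arrays share systems, genotypes and litters, so these values describe likeness and carry no test.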

How the data were processed

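The authors deposited log2 signals for 42 Affymetrix whole-genome mouse arrays, made from the scanned arrays with RMA (background correction, quantile normalization and a summary per probe set; 100 ng of RNA each). Versions and the set of arrays normalized together are not given in the sources used here. The values were used as deposited. Array medians lie between 5.40 and 5.56. Precision depends on how many arrays a group has and on how far they spread.

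Of 45101 probe sets, 64 controls were left out. The platform annotation gives 1 gene for 34945 probe sets, several for 932 and none for 9160; only the first kind was named, and positions and promoters come from RefSeq on GRCm38.p6, where all 10 genes were matched, 8 of them with a promoter. Groups follow the labels. limma 3.58.1 in R 4.3.3 fitted the 8 group means with eBayes (34 residual and 3.58 prior degrees of freedom) over all 45037 probe sets, with Benjamini-Hochberg adjustment. KO minus WT and its differences between systems were called at an unadjusted p under 0.05, the threshold of the study's methods, and the other comparisons at an adjusted p under 0.05. Exact permutation tests were two-sided (Python 3.11.15, SciPy 1.17.1); 5 against 5 arrays allow no p under 0.00794. Probe sets of a gene are numbered by their mean signal.

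All members are named; of the pathway genes, up to 3 per role with the smallest p that were called and above background; and the 5 genes most like each member above background. *Fmr1* was the check of the labels. The members and the gene lists were chosen with earlier results of these data known. Alternatives covered the threshold, the arrays fitted, normalization, variance model, array weights, background filter, probe set per gene, the mouse ID as a block and each array left out. The mouse ID was read as the litter; over 60 pairs of arrays with the same mouse ID in different systems, deviations from the group means correlated at a median of 0.10 (-0.15 to 0.58), above 0.1 in 30. The fit was also run on simulated data in which each probe set had the same spread in every group. That run cannot show how the fit handles groups of unequal spread, such as those of *Ptgs2* and *Ptgds*.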

Additional observations from a re-analysis of the deposited data

Results flagged for a closer look

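In 9 of 128 groups of arrays, the highest or lowest array stood apart from the rest by more than Dixon's 95% limit, where chance gives about 1 in 20. WT mouse 3569 accounts for 4 of them: *Ptgds* set 1 in primary hippocampus (9.02, the others 7.09 to 7.72), *Ggt5* set 2 there (5.14, the others 5.02 to 5.05), *Pla2g4a* in cortical culture (3.25, the others 3.47 to 3.52) and *Ptges* set 1 in primary cortex (4.82, the others 5.15 to 5.25). The rest were *Ptgds* set 1 in WT cortical culture 2643 (7.22, the others 6.61 to 6.74), *Ptgs2* set 2 in WT primary cortex 2644 (3.23), *Alox15* in WT cortical culture NT (3.93), *Alox12* set 1 in KO primary cortex 4236 (3.61) and *Ggt5* set 3 in KO primary cortex 2620 (4.08), all but the first under the background level. The hippocampal culture 3569, at 8.80 on *Ptgs2* set 1, did not pass that limit because its whole group is spread out.

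KO effects of 6 probe sets and pairs of systems differed between systems at an unadjusted p under 0.05, with no adjusted p under 0.95. These were *Ptgds* set 2 in hippocampal culture against primary hippocampus (1.40) and in primary hippocampus against primary cortex (-1.26), *Ggt5* set 1 in hippocampal culture against primary hippocampus (-0.26) and in cortical culture against primary cortex (-0.41), and in the last pair also *Ggt5* set 3 (-0.29) and *Alox12b* (-0.25).

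In 6 cases the difference between culture and tissue differed between the regions at an adjusted p under 0.05. Hippocampus minus cortex, they were 1.98 and 0.97 for *Ptgs2*, -0.75 and -1.33 for *Ptgds*, 0.17 for *Ggt5* set 2 and -0.21 for *Alox12* set 2.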

How the results depend on the processing

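None of the 40 called values changed direction under any alternative; of the litter means, 3 genes with differences near 0 (*Pla2g4a*, *Alox12* and *Alox15*) changed sign when 1 litter was left out, none with an exact permutation p under 0.05. Of 208 values (16 probe sets in 13 comparisons), 40 were called, 20 were called under some alternative only and 148 in none; 27 of the 40 kept their call in every alternative other than the stricter threshold. With calls at an adjusted p under 0.05, the 4 KO counts and the differences of the KO effect fell to 0. With calls at 2-fold or more, culture minus tissue fell to 3 and 0 in hippocampus and cortex, hippocampus minus cortex to 1 in tissue and 1 in culture, and the regional difference of the culture effect to 2. Fits on the compared arrays alone left 1 KO call in hippocampal culture and 1 in primary hippocampus. In cortical culture the KO count was 1 with centred arrays, repeated quantile normalization, array weights, only probe sets above background or 1 probe set per gene; centred arrays left 2 calls for culture minus tissue in cortex. With only probe sets above background, counts were 1 for KO in primary cortex, 4 and 1 for culture minus tissue, 2 for the regions in culture and 3 for the regional difference. With 1 probe set per gene they were 1 for KO in primary hippocampus, 3 and 2 for culture minus tissue, 1 and 2 for the regions in tissue and culture, 3 for the KO effect between systems and 2 for the culture effect between regions. Litter means of the tissues alone gave 3 genes at an exact permutation p under 0.05, against 1 over all systems. Leaving out 1 array gave KO counts of 1 to 3 in hippocampal culture (1 without WT 3569), 0 to 3 in cortical culture (0 without KO 2620 or WT 3569) and 1 to 2 in primary hippocampus (1 without WT 3569). The cause of these changes was not tested, apart from filters that remove members by construction.

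With the mouse ID as a replicate block, the KO counts were 3, 2, 2 and 2 as before, and culture minus tissue in cortex gave 6. Another level than the 95th percentile for background leaves 9 (90th) or 5 (99th) of 16 probe sets above it in some group. Centring the arrays moved the median of all probe sets by at most 0.09.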

Other observations

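The receptor *Ptger3*, higher in culture than in tissue in both regions, had its highest level in cortical culture, where *Ptgs2* was under background. It averaged 7.49 ± 0.48 (SD, n = 5) in KO and 7.55 ± 0.61 in WT cortical cultures and 5.91 ± 0.43 and 6.29 ± 0.95 in hippocampal cultures, while its tissue means of 3.90 to 4.24 lay under the background level.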
